A study of Mus musculus with 6 samples.

Results

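The luminal epithelial transcription factors examined here are 10 genes for factors linked to the inner, luminal cells of the mammary gland, some of them with wider epithelial roles. They are Gata3, Foxa1, Elf3, Ehf, Grhl2, Tfap2c, Spdef, Tbx3, Esr1 and Pgr. They were taken as a list by gene symbol, and where a gene had several probe sets the one with the highest 6-array mean stood for it. All 10 of 10 were measured, each by 1 probe set, among 19937 genes in all. RNA came from mammary epithelial organoids, small pieces of gland freed by enzymes and grown in growth factor-reduced basement-membrane gel. The donors were age-matched female FVB mice carrying ErbB3 DOX-KO, a doxycycline-inducible knockout of Erbb3, and both groups of cultures carried it. One group was grown for 14 days with 5 µM doxycycline (DOX, 3 arrays) and the control group for 14 days without it (3 arrays). Doxycycline itself was therefore given to one group only, and its own action and that of the knockout cannot be told apart here. The promoter that drives the induction is not given in the labels. The comparison asks how the expression of these factors differs between organoids carrying the inducible knockout that were grown with and without doxycycline.

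As background, the mammary epithelium has an inner luminal layer and an outer contractile basal layer. Luminal cells divide into hormone-sensing cells, which carry the estrogen receptor (Esr1) and the progesterone receptor (Pgr), and alveolar or progenitor cells, which lead to milk secretion. Gata3 maintains luminal fate as a whole, and Foxa1 opens chromatin for the estrogen receptor. Erbb3 has little kinase activity of its own and signals by pairing with other ErbB receptors, mainly towards PI3K.

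Values are log2 expression summaries, so a difference of 1 is a 2-fold change. Differences are DOX minus control, with 95% confidence intervals from limma. DOX replicate 2 stood apart: across genes it correlated with the others at 0.816 to 0.865, and the other 5 arrays correlated with each other at 0.963 or more. Its slope on the control mean was 0.548, so high values were compressed downward and low values upward on that array. Both limma fits, of all 6 arrays and of the 5 arrays without it, are therefore given for each of the 10 factors. The second leaves 2 arrays labelled DOX, and genes named from other lists are described mainly from it, with their values over all arrays beside them where they were called. Of all genes, 2.38% passed an adjusted p of 0.05 in the first fit (24 higher and 450 lower, 0.120% and 2.26% of all genes) and 26.6% in the second (2454 higher, 2855 lower). A second quantile normalization turned these splits into 185 higher and 626 lower, and 2360 higher and 3408 lower. Centring each array on its median gave 7 higher and 487 lower, and 1823 higher and 3410 lower. Erbb3 read 10.36, 9.31 and 9.82 in DOX replicates 1, 2 and 3, against 9.78, 9.71 and 9.69 in the control arrays. Its level was thus not lower in the arrays labelled DOX (difference 0.10, limma adjusted p = 0.845, and 0.37, adjusted p = 0.105, without DOX replicate 2). Which exons are deleted is not stated, so this probe set does not settle whether the labels are right or whether the deletion took place. Every direction given here takes the labels as they stand.

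In limma, 0 of the 10 luminal factors passed with all 6 arrays, and 2 of the 10 had an unadjusted p under 0.05, as did 14.0% of all genes. In the 5 other arrays Tfap2c and Elf3 fell, Ehf rose and the other 7 did not pass. Over all genes in that fit 14.3% fell and 12.3% rose. Over the 10 factors the median difference was −0.06 in the fit of all arrays and −0.10 in the other, beside 0.02 and 0.01 for all genes. The 3 arrays labelled DOX lay below every control array for Gata3, Elf3 and Tfap2c and above every control array for none of the 10. Over all genes, 32.0% had such non-overlapping groups, 20.3% with DOX below. In organoid RNA, fewer luminal cells and less RNA per luminal cell cannot be told apart.

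**Figure D1:**
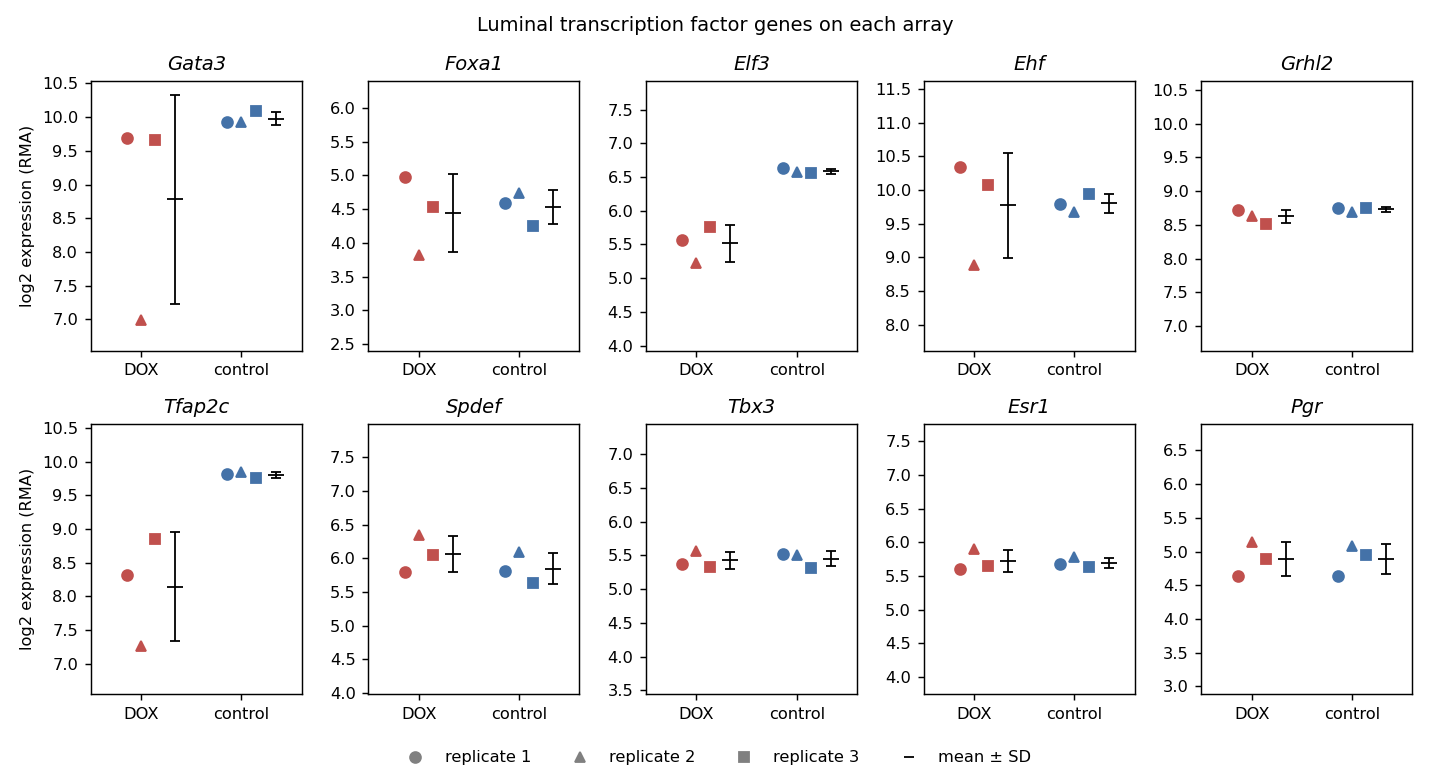
Log2 expression of the 10 luminal factors on each array, DOX left of control in every panel. Symbols mark replicates 1 to 3 and the bar is the mean ± SD (n = 3 each). Every panel spans 4 log2 units. Tfap2c and Elf3 lie lower on all 3 DOX arrays, Gata3 lies far lower on DOX replicate 2 alone, and the groups overlap for Foxa1, Ehf, Grhl2, Spdef, Tbx3, Esr1 and Pgr.

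Tfap2c, which encodes the AP-2 gamma factor of luminal and progenitor cells, had the lowest difference of the 10. It read 8.32, 7.26 and 8.86 in DOX replicates 1, 2 and 3, against 9.81, 9.84 and 9.76 in the control arrays. The control arrays lay close to each other, and the DOX arrays spread widely below them. The means were 8.15 ± 0.81 for DOX and 9.80 ± 0.04 for control (SD, n = 3 each), which differed by −1.66 (95% interval from −2.61 to −0.70, limma adjusted p = 0.115). Of 14 alternatives to that fit, Tfap2c passed in 3, among them leaving out DOX replicate 2 (limma adjusted p up to 0.46 over the 14). In the 5 other arrays it fell 2.32-fold, a log2 difference of −1.22 (95% interval from −1.55 to −0.88, limma adjusted p = 1.71e-04). In that fit the call held under all 12 alternatives tried, with differences from −1.49 to −0.94.

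Elf3, Ehf and Spdef encode ETS-domain factors of epithelial cells. In the fit without DOX replicate 2 Elf3 fell, Ehf rose and Spdef did not pass. Elf3, an epithelial activator induced in differentiating and inflamed epithelia, read 5.57, 5.22 and 5.76 in DOX replicates 1, 2 and 3, against 6.63, 6.58 and 6.56 in the control arrays. All 3 DOX arrays were lower. The means were 5.52 ± 0.27 and 6.59 ± 0.04 (SD, n = 3 each), which differed by −1.07 (95% interval from −1.55 to −0.59, limma adjusted p = 0.0528). Of 14 alternatives to the fit of all arrays, Elf3 passed in 5 (limma adjusted p up to 0.31 over the 14). Elf3 fell in the fit without DOX replicate 2 (−0.92, 95% interval from −1.17 to −0.67, limma adjusted p = 1.60e-04), and this call too held under all 12 alternatives. The difference of Elf3 was thus of like size with and without the array that stood apart.

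Ehf, a close relative of Elf3 in the same epithelial ETS subfamily, read 10.35, 8.89 and 10.08 in DOX replicates 1, 2 and 3, against 9.79, 9.67 and 9.95 in the control arrays. DOX replicate 2 was the lowest of the 6 arrays and the other 2 DOX arrays were the highest. Its difference was −0.03 (95% interval from −0.96 to 0.90, limma adjusted p = 0.968) with all arrays and 0.41 (95% interval from 0.12 to 0.70, limma adjusted p = 0.0387) without DOX replicate 2, a 1.33-fold rise. That call was lost in 5 of 12 alternatives, among them leaving out DOX replicate 1 (0.28, adjusted p = 0.180), control replicate 1 (adjusted p = 0.102) or control replicate 2 (adjusted p = 0.135), and the difference stayed positive in all 12. The within-array difference Elf3 minus Ehf separated the groups with and without DOX replicate 2. DOX minus control of this quantity was −1.04 with all arrays and −1.33 with DOX replicate 2 left out. The pair was chosen after its values were seen, and such separation was common: 20 of the 45 pairs of the 10 factors separated with all arrays and 26 without DOX replicate 2. These values are a description, and no difference in response between the factors is called from them.

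Spdef, an ETS factor known for secretory and goblet cell differentiation, read 5.80, 6.34 and 6.05 in DOX replicates 1, 2 and 3, against 5.81, 6.09 and 5.64 in the control arrays. The groups overlapped. Its difference was 0.22 (95% interval from −0.32 to 0.75) with all arrays and 0.08 (95% interval from −0.25 to 0.41) without DOX replicate 2.

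**Figure D2:**
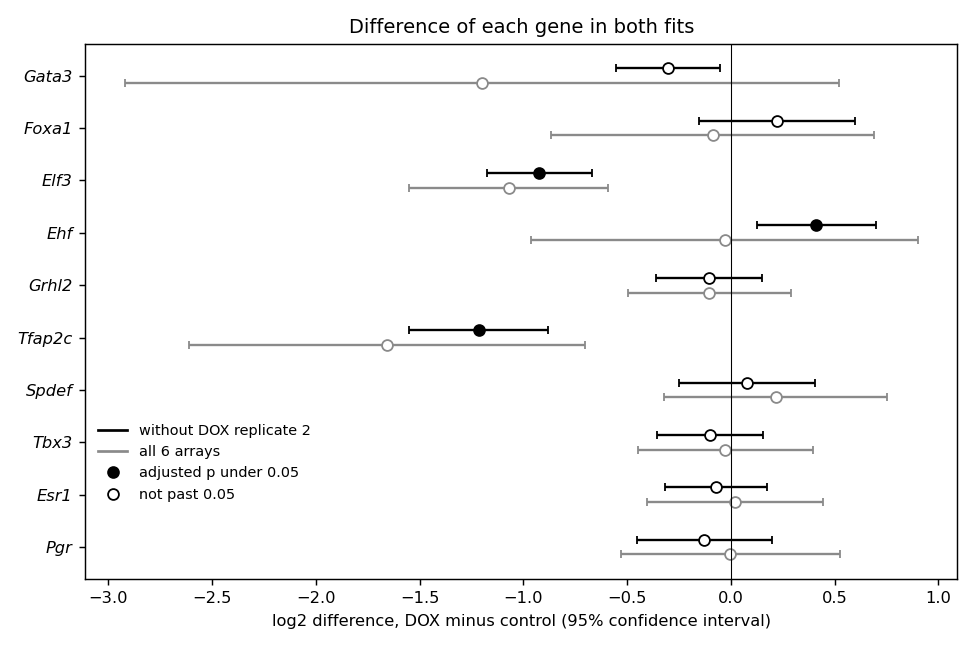
Log2 difference, DOX minus control, of each luminal factor with its 95% confidence interval from limma, for the 5 arrays without DOX replicate 2 (black) and for all 6 arrays (grey). Filled points passed an adjusted p of 0.05: Tfap2c (−1.22), Elf3 (−0.92) and Ehf (0.41), all without DOX replicate 2. The grey intervals of Gata3, Tfap2c and Ehf are the widest.

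Gata3, the zinc-finger factor that maintains luminal fate, read 9.69, 6.99 and 9.66 in DOX replicates 1, 2 and 3, against 9.93, 9.92 and 10.09 in the control arrays. All 3 DOX arrays were lower, 2 of them slightly and DOX replicate 2 by 2.99 from the control mean. The means were 8.78 ± 1.55 and 9.98 ± 0.09 (SD, n = 3 each), which differed by −1.20 (95% interval from −2.92 to 0.52, limma adjusted p = 0.459). The 5 other arrays gave a difference of −0.30 (95% interval from −0.55 to −0.05, limma adjusted p = 0.0718), which excludes a 2-fold decrease in those arrays. It did not pass there, and it passed in 4 of 12 alternatives of that fit (adjusted p 0.0210 to 0.233). The size of the Gata3 difference therefore rests on DOX replicate 2.

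Foxa1, the forkhead factor that opens chromatin for the estrogen receptor, read 4.98, 3.82 and 4.53 in DOX replicates 1, 2 and 3, against 4.60, 4.74 and 4.26 in the control arrays. The highest and the lowest of the 6 values were both DOX arrays. Its difference was −0.09 (95% interval from −0.87 to 0.69) with all arrays and 0.22 (95% interval from −0.15 to 0.60) without DOX replicate 2.

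The next sequences are the RefSeq promoter windows (GRCm38.p6, minus strand, 250 bases before to 50 after an annotated start) of Gata3 at chr2:9878551-9878850 and Elf3 at chr1:135258423-135258722. They are shown because Gata3, Elf3 and Tfap2c were the members whose DOX arrays all lay below the control arrays, and the table held windows for 6 of the 10 members. Capitals mark matches to the AP-2 motif GCCNNNGGC or the ETS motif GGAAG on either strand.
Gata3: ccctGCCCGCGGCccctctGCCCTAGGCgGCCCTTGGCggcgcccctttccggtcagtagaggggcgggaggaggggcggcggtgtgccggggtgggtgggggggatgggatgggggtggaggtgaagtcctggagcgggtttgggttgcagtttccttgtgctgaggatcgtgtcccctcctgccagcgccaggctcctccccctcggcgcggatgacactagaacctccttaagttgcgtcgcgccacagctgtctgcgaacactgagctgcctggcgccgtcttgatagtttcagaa
Elf3: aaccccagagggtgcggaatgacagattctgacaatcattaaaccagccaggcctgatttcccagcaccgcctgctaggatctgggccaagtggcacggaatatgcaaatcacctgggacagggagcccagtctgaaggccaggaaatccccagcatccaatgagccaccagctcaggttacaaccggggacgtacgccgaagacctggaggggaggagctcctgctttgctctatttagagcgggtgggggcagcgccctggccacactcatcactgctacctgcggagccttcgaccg
The Gata3 window held 3 AP-2 matches and 0 ETS matches, and no match overlapped another. The Elf3 window held 0 of both. Among the other members with windows, a window of Esr1 held 1 AP-2 match, and windows of Spdef, Esr1 and Pgr held ETS matches. The Foxa1 window held 0 of both. Over all 32851 windows of this length, 16.6% held the AP-2 motif at least once and 71.4% the ETS motif. The share with 3 AP-2 matches was not computed. The GATA motif AGATAA was also searched on both strands and was present in 11.2% of all windows. The forkhead motif TGTTTAC was present in 3.65% of all windows. The grainyhead motif AACCGGTT was present in 0.146% of all windows. These 3 motifs had 0 matches in the Gata3 and Elf3 windows. A match describes letters in a window and not a bound site.

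Grhl2, a grainyhead factor that sustains E-cadherin and claudin expression, read 8.73, 8.63 and 8.52 in DOX replicates 1, 2 and 3, against 8.75, 8.69 and 8.75 in the control arrays. Its values lay close together on all 6 arrays, and the groups overlapped. The difference was −0.10 (95% interval from −0.50 to 0.29) with all arrays and −0.11 (95% interval from −0.36 to 0.15) without DOX replicate 2. Both intervals exclude a 2-fold change, although a smaller one is not excluded.

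The hormone receptors and Tbx3 gave no difference past the test in either fit. Esr1 read 5.60, 5.90 and 5.65 in DOX replicates 1, 2 and 3, against 5.67, 5.78 and 5.64 in the control arrays. Its difference was 0.02 (95% interval from −0.40 to 0.44) with all arrays and −0.07 (95% interval from −0.32 to 0.17) without DOX replicate 2. The groups overlapped, as they did for the progesterone receptor gene, itself a target of the estrogen receptor. Pgr read 4.63, 5.14 and 4.89 in DOX replicates 1, 2 and 3, against 4.64, 5.09 and 4.94 in the control arrays. Its difference was −0.00 (95% interval from −0.53 to 0.52) with all arrays and −0.13 (95% interval from −0.46 to 0.20) without DOX replicate 2. Tbx3 is a T-box repressor needed for mammary bud formation and expressed in hormone-sensing cells. It read 5.38, 5.57 and 5.33 in DOX replicates 1, 2 and 3, against 5.53, 5.51 and 5.32 in the control arrays. Its difference was −0.03 (95% interval from −0.45 to 0.39) with all arrays and −0.10 (95% interval from −0.36 to 0.16) without DOX replicate 2. The control means of Foxa1, Spdef, Tbx3, Esr1 and Pgr, 4.53 to 5.85, lay below the median gene of the control arrays at 5.93. The deposited values carry no detection call, so it is not known whether these 5 probe sets read above background, and a change near that level can be understated.

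Because DOX replicate 2 compressed the scale, each DOX array was also set beside genes of like control level, taken as the same decile of all genes ranked by control mean (1993 or 1994 genes each). On DOX replicate 2 Gata3 differed from the control mean by −2.99 and Tfap2c by −2.54, and the median gene of their decile by −1.59. Ehf belonged to the same decile and differed by −0.92. In that decile 8.32% of genes lay lower than Gata3, 15.8% lower than Tfap2c and 77.3% lower than Ehf. Grhl2 differed by −0.10 on that array, its decile had a median of −1.36, and 95.1% of the decile lay lower. Foxa1 differed by −0.71 where the median of its decile was 0.79, and 0.652% of that decile lay lower. Elf3 differed by −1.02, −1.37 and −0.83 on DOX replicates 1, 2 and 3, where the medians of its decile were −0.04, −0.26 and −0.09. Spdef, Tbx3, Esr1 and Pgr differed on DOX replicate 2 by 0.49, 0.12, 0.20 and 0.25, and the medians of their deciles were 0.30, 0.30, 0.30 and 0.63. The low-reading factors thus moved upward on that array as most genes of their level did, and Foxa1 was the exception among them. Gata3, Elf3, Tfap2c, Tbx3, Esr1 and Pgr lay below the median of their decile on all 3 DOX arrays, some by little. The share of all genes that did so was not computed, so no trend of the factors as a set is read from this.

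**Figure D3:**
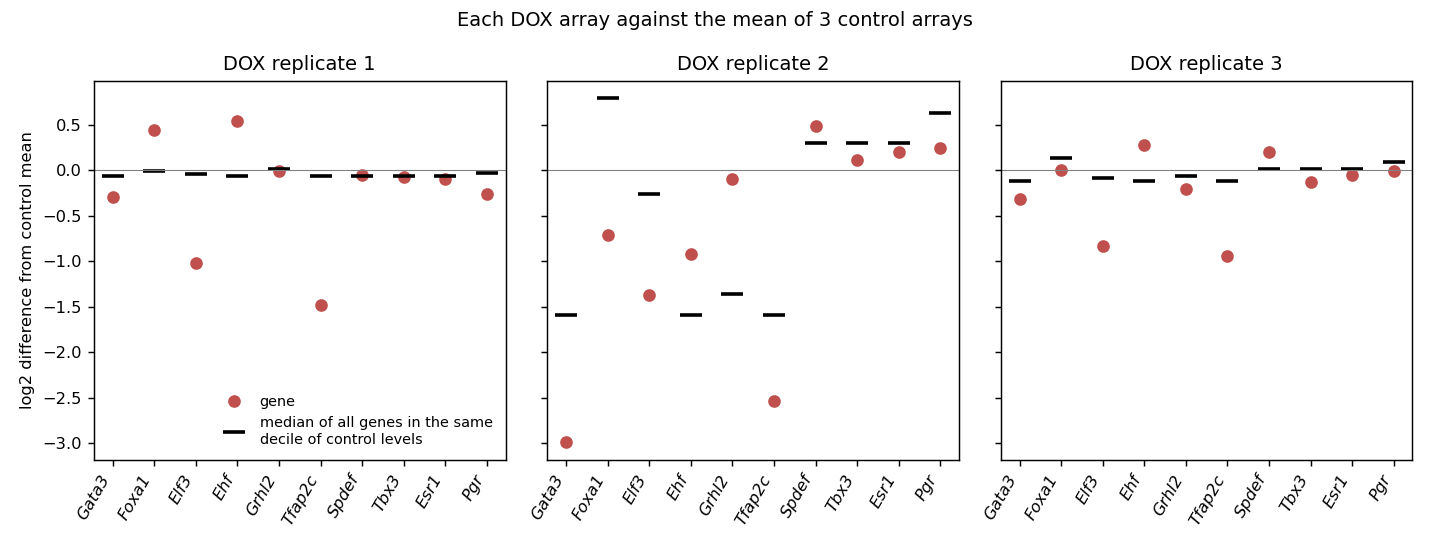
Log2 difference of each luminal factor from the mean of the 3 control arrays (points), one panel per DOX replicate, with the median of all genes in the same decile of control levels (dashes). On DOX replicate 2 the medians run from −1.59 to 0.79. Gata3, Elf3, Tfap2c, Tbx3, Esr1 and Pgr lie below the dash in every panel, and Foxa1 lies below it on DOX replicates 2 and 3. The share of all genes that lie below in every panel was not computed.

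Relatives of the factors in the same DNA-binding families mostly did not pass, like most genes. Of 18 measured relatives, 1 fell and 0 rose with all arrays, beside 2.26% and 0.120% of all genes. Without DOX replicate 2, 2 fell and 0 rose, beside 14.3% and 12.3% of all genes. The median difference was 0.03 in the second fit. Elf5, the third epithelial ETS factor beside Elf3 and Ehf and a driver of alveolar development, read 8.07, 7.27 and 8.38 in DOX replicates 1, 2 and 3, against 10.08, 10.17 and 10.03 in the control arrays. It fell in both fits (−2.19 and −1.86, limma adjusted p = 0.0189 and 1.63e-06). Foxa3 also fell in the second fit (−0.65, adjusted p = 0.00394), and its control level lay below the median gene. With all arrays Foxa3 differed by −0.61 (adjusted p = 0.201). Tfap2a, the AP-2 alpha gene, differed by 0.16 there (limma adjusted p = 0.390) where Tfap2c fell, and by −0.30 with all arrays (adjusted p = 0.688). Grhl1 and Grhl3 differed by −0.28 and −0.05 (adjusted p = 0.0846 and 0.822), Tbx2 by 0.10 (adjusted p = 0.673) and the second estrogen receptor gene Esr2 by −0.16 (adjusted p = 0.417). The difference in response between relatives was not tested.

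Of 12 measured hormone-sensing genes and hormone receptor targets, 1 fell and 0 rose with all arrays, beside 2.26% and 0.120% of all genes. Without DOX replicate 2, 4 fell and 2 rose (median −0.09), beside 14.3% and 12.3% of all genes. Fkbp5, a target of the progesterone and glucocorticoid receptors, read 8.90, 8.25 and 8.92 in DOX replicates 1, 2 and 3, against 10.01, 9.96 and 10.06 in the control arrays. It fell in both fits (−1.32 and −1.10, limma adjusted p = 0.0450 and 3.17e-05). Zbtb16, a zinc-finger gene that the same receptors induce in other tissues, rose by 0.60 in the second fit (adjusted p = 0.0103), opposite in direction to Fkbp5. Xbp1, a secretory pathway regulator linked to the estrogen receptor, and Ccnd1, which encodes cyclin D1, fell there (−0.84 and −0.74, limma adjusted p = 8.20e-04 and 0.00213). With all arrays Zbtb16, Xbp1 and Ccnd1 differed by 0.59, −1.42 and −1.50 and did not pass (limma adjusted p = 0.236, 0.263 and 0.351). Tnfsf11, the progesterone-induced ligand RANKL, differed by −0.29 (adjusted p = 0.105) and the estrogen receptor target Greb1 by −0.02 (adjusted p = 0.956). Wnt4, a progesterone target, rose by 0.45 (adjusted p = 0.0280) by its probe set with the higher mean, but its other probe set differed by −0.20, so its direction depends on the probe set. With all arrays the first differed by 0.72 (adjusted p = 0.320), and its control level lay below the median gene. Areg, Calca and Prlr were not analysed here.

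Of 12 measured cofactors of hormone receptors and of GATA and FOXA factors, 0 passed in limma with all arrays (2.38% of all genes did). There 1 had an unadjusted p under 0.05, as did 14.0% of all genes. Without DOX replicate 2, 4 rose and 1 fell (median 0.17), beside 12.3% and 14.3% of all genes. Lmo4, a LIM-domain adaptor that binds Ldb1 and is made in mammary epithelium, read 9.79, 8.54 and 9.87 in DOX replicates 1, 2 and 3, against 10.89, 10.91 and 10.94 in the control arrays, and fell in the second fit (−1.09, adjusted p = 3.27e-05). The histone acetyltransferase genes Ep300 and Crebbp rose by 1.24 and 0.80 (limma adjusted p = 2.50e-04 and 0.00189). Med1, the Mediator subunit that nuclear receptors bind, rose by 0.59 (adjusted p = 0.00313). With all arrays Med1 differed by −0.09, since DOX replicate 2 read 7.04. Lmo4, Ep300 and Crebbp differed by −1.52, 0.73 and 0.59 with all arrays and did not pass (limma adjusted p = 0.122, 0.462 and 0.378).

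Epithelial adhesion and splicing genes known as grainyhead targets or partners went both ways. Of 12 measured, 0 passed in limma with all arrays (2.38% of all genes did). There 2 had an unadjusted p under 0.05, as did 14.0% of all genes. Without DOX replicate 2, 2 rose and 2 fell (median −0.10), beside 12.3% and 14.3% of all genes. The tight junction gene Cldn4 rose by 1.88 and the splicing regulator Esrp1 by 0.53 (limma adjusted p = 1.01e-05 and 0.00831). Ovol2, a zinc-finger repressor of mesenchymal genes, and Rab25, an epithelial vesicle GTPase, fell (−0.50 and −0.49, adjusted p = 0.00851 and 0.0243). With all arrays Cldn4, Ovol2 and Rab25 did not pass, at differences of 1.42, −0.52 and −1.09 (limma adjusted p = 0.192, 0.231 and 0.401). The direction of Esrp1 rests on leaving out DOX replicate 2, which read 8.23, below the control arrays at 9.26 to 9.39, and with it the difference was −0.02 (adjusted p = 0.987). Cdh1, which encodes E-cadherin, differed by −0.06 (adjusted p = 0.718).

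Of 7 luminal structural and surface genes, 0 passed in limma with all arrays (2.38% of all genes did). There 4 had an unadjusted p under 0.05, as did 14.0% of all genes. Without DOX replicate 2, 4 fell and 0 rose (median −0.64), beside 14.3% and 12.3% of all genes. The luminal mucin gene Muc1 fell (−1.03, limma adjusted p = 4.53e-04), and its control level lay below the median gene. The simple-epithelial keratin genes Krt8, Krt7 and Krt18 fell too (−0.74, −0.74 and −0.64, limma adjusted p = 4.94e-04, 0.00215 and 0.00156). With all arrays Muc1, Krt8, Krt7 and Krt18 differed by −0.77, −1.01, −0.96 and −0.64 and did not pass (limma adjusted p = 0.304, 0.145, 0.152 and 0.135). In each of these genes the DOX arrays lay below the control arrays, as they did in 20.3% of all genes.

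Among 12 alveolar and luminal progenitor regulators, 1 fell with all arrays, beside 2.26% of all genes. Without DOX replicate 2, 6 fell and 2 rose (median −0.32), beside 14.3% and 12.3% of all genes. Elf5, given above, was the one that passed in both fits. Hey1, a Notch target of luminal progenitors, fell in the second fit (−1.50, adjusted p = 7.05e-05). Klf5 and Runx1, which encode regulators of luminal and progenitor growth, rose by 1.08 and 0.66 (limma adjusted p = 4.23e-05 and 0.00106), and their values on DOX replicate 2, 8.77 and 8.15, lay below all control arrays. With all arrays Hey1, Klf5 and Runx1 differed by −2.04, 0.62 and 0.17 and did not pass (limma adjusted p = 0.103, 0.475 and 0.830).

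Of 12 basal and mesenchymal transcription factors, 1 rose and 0 fell with all arrays, beside 0.120% and 2.26% of all genes. Without DOX replicate 2, 4 rose and 0 fell (median 0.15), beside 12.3% and 14.3% of all genes. Hmga2, a chromatin protein of immature and mesenchymal cells, read 8.95, 8.78 and 8.97 in DOX replicates 1, 2 and 3, against 7.69, 7.69 and 7.48 in the control arrays. It rose in both fits, by 1.28 (limma adjusted p = 0.0171) and by 1.34 (limma adjusted p = 1.18e-05). Snai2, Twist1 and Zeb2, which repress or oppose epithelial genes, rose by 1.32, 1.02 and 0.84 in the second fit (limma adjusted p = 8.03e-04, 2.22e-04 and 0.00424). With all arrays they differed by 1.12, 0.56 and 0.68 and did not pass (limma adjusted p = 0.157, 0.498 and 0.301). On DOX replicate 2 Twist1 read 6.20, below the control arrays at 6.40 to 6.77. The control levels of Snai2 and Zeb2 lay below the median gene. Trp63, the basal layer's p63 gene, differed by 0.16 (adjusted p = 0.379).

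**Figure D4:**
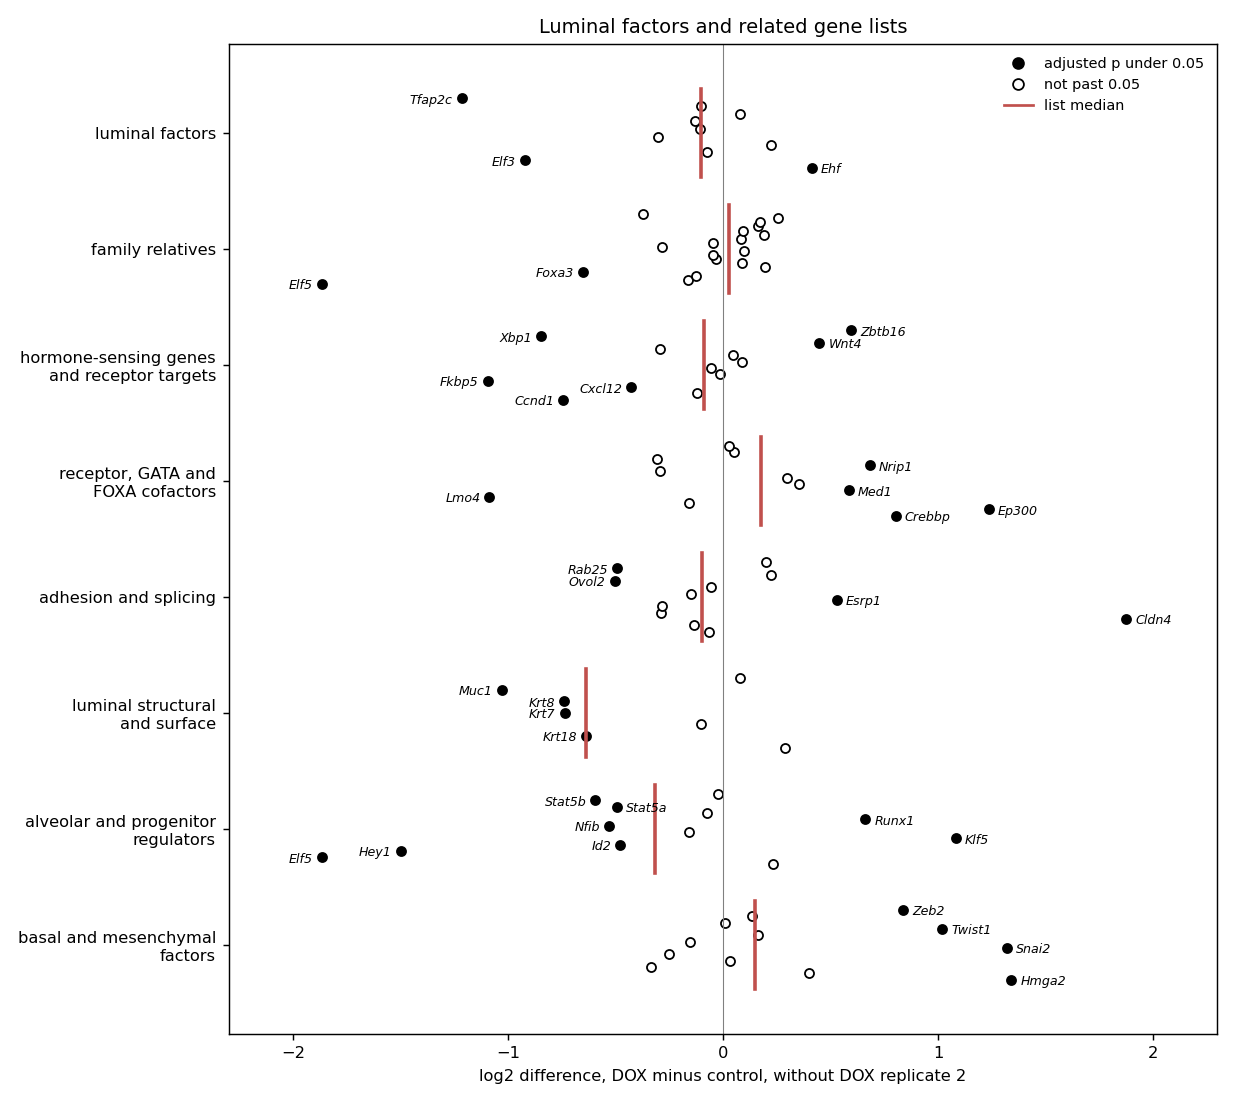
Log2 difference, DOX minus control, without DOX replicate 2, for the luminal factors and for each related gene list. Filled points, with gene names, passed an adjusted p of 0.05, and the red line is the list median. Elf5 (−1.86) lies lowest and Cldn4 (1.88) highest. The luminal structural and surface genes have the lowest list median, −0.64.

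Markers of other cell types were set beside these values. All 5 luminal markers fixed for this check were measured: Krt8, Krt18, Epcam and Cldn3 read 9.09 or more on every array, and Krt19 read 4.64 to 4.99, below the median gene. Of 8 basal and myoepithelial markers, 6 lay below the median gene in control arrays, and the log2 of their summed signal was 8.17 to 8.92 in DOX arrays and 8.79 to 8.88 in control arrays. With DOX replicate 2 left out the DOX range was 8.17 to 8.38, and Oxtr and Krt14 fell (−1.71 and −1.06). The other 6 basal and myoepithelial markers did not pass there, and the median difference of the 8 was −0.14. In that fit 14.3% of all genes fell and 12.3% rose. With all arrays Oxtr fell too (−1.91, limma adjusted p = 0.0180), and Krt14 did not pass (−0.96, adjusted p = 0.0831). Of 6 immune markers 5 lay below the median gene, and the summed signal was 8.56 to 8.87 in DOX arrays and 8.14 to 8.26 in control arrays. Its DOX range without DOX replicate 2 was 8.81 to 8.87. In the 5 other arrays Cd68, a lysosomal protein of macrophages also made by other cells, rose by 1.01 and Ptprc, the pan-leukocyte CD45 gene, by 0.38. The other 4 immune markers did not pass there, and the median difference of the 6 was 0.01. With all arrays Cd68 and Ptprc differed by 0.49 and 0.52 and did not pass (limma adjusted p = 0.568 and 0.319). On DOX replicate 2 Cd68 read 6.72, below the control arrays at 7.19 to 7.43. The summed immune signal of 8.56 was that array's, on which low values were compressed upward. Cd3e read 7.06 on it, against 5.39 to 5.85 in the control arrays. Of all genes, 14.0% had an unadjusted limma p under 0.05 with all arrays. No fibroblast, endothelial or adipocyte marker passed in either limma fit (6, 5 and 5 genes), and 0 of them had an unadjusted p under 0.05. Their summed signals were 7.91 to 8.88, 6.87 to 7.68 and 6.91 to 7.55 in DOX arrays and 7.97 to 8.14, 6.81 to 6.89 and 6.86 to 6.91 in control arrays. The upper ends in DOX arrays came from DOX replicate 2, on which low values were compressed upward. Without that array the DOX ranges were 7.91 to 8.12, 6.87 to 6.99 and 6.91 to 6.92, each overlapping the control range. No marker reads 0, because the deposited scale has no 0. The part of the basal and immune markers in the differences of Tfap2c, Elf3 and Ehf was not tested.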

How the data were processed

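RNA of 6 organoid cultures was measured on Affymetrix whole-transcript mouse arrays in 1 colour. Each deposited value is a probe set's log2 level, made with RMA and the affy package per the submitters' processing notes, which give no versions. They were used as deposited. No source used here gives the genome build of the array's annotation. Of 34760 probe sets, 21640 had 1 gene symbol, 1321 several and 11799 none here. Where a gene had several probe sets, the one with the highest 6-array mean stood for it, giving 19937 genes.

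Groups and replicate numbers came from the sample titles. Whether replicates came from separate mice is not stated, so p-values measure the spread between these cultures. The number of arrays limits precision. Differences between DOX and control were tested two-sided in R 4.3.3 by limma 3.58.1, using lmFit and eBayes without covariates, with Benjamini-Hochberg adjustment over all genes and a threshold of 0.05, for all 6 arrays and without DOX replicate 2. When both fits were tested on simulated data, the fit of all 6 arrays recovered fewer of the changed genes than the fit of 5. The fit of all 6 arrays takes in the spread of DOX replicate 2, so its lower recovery does not show which fit is nearer the truth. Neither fit is preferred on that ground. The 10 factors and the related lists were chosen with earlier results of these data known. Named were all 10 factors, Erbb3, up to 4 genes per related list with the smallest p past the threshold, and preset relatives and targets. Alternatives were a replicate block, each array left out, low-mean filters, other scalings, the mean over probe sets, a variance trend, and array weights, estimated gene by gene.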

Additional observations from a re-analysis of the deposited data

How the results depend on the processing

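With all 6 arrays, 0 luminal factors higher and 0 lower was the count under the replicate block, median centring and the mean over probe sets. Leaving out the lowest 25% or 50% of genes (Elf3, adjusted p = 0.0418 and 0.0468), the variance trend (Elf3, adjusted p = 0.0313) and a second quantile normalization (Tfap2c, adjusted p = 0.0307) each gave 1 lower factor. Array weights gave 3 (Tfap2c, Elf3 and Gata3). Leaving out 1 array at a time gave 0 to 1 higher and 0 to 2 lower factors, the upper ends without DOX replicate 2. Over all genes that range was 2 to 2454 higher and 61 to 2855 lower. The replicate block gave 3 higher and 159 lower genes, array weights 3643 and 3752, a second quantile normalization 185 higher and median centring 7 higher. Median centring moved the median of all genes by −0.20 and a second quantile normalization by −0.11.

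Without DOX replicate 2, 2 or 3 factors were lower in all 12 alternatives, Tfap2c and Elf3 among them. The count of higher factors, 1 (Ehf), became 0 with the replicate block and with median centring, and was 0 to 1 with another array left out. Those ranges over all genes were 1550 to 2515 higher and 2168 to 2914 lower. Leaving out a second DOX array left 1, assumed to vary like the controls. Foxa1 was not tested with the lowest 25% of genes left out, nor Foxa1, Tbx3, Esr1 and Pgr with the lowest 50% left out. Whether replicate numbers pair the samples could not be decided. The correlation of same-numbered deviations from the group means was 0.117, 0.194 and 0.0852. DOX replicates 1 and 2 each correlated most with the control array of the same number. DOX replicate 3 correlated more with control replicate 1 than with control replicate 3. DOX replicate 2, which stood apart, weighs on the DOX mean and so on the deviations of all 3 DOX arrays.

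Directions turned only for factors with small differences, none of which had passed in the fit concerned, and the cause was not tested. With all arrays, leaving out 1 array gave −0.32 to 0.41 for Ehf, −0.35 to 0.22 for Foxa1, −0.072 to 0.079 for Esr1, −0.13 to 0.12 for Pgr and −0.10 to 0.021 for Tbx3. A second quantile normalization gave 0.21 for Ehf, 0.15 for Grhl2 and −0.14 for Esr1, median centring −0.18 for Esr1, and array weights 0.087 for Foxa1, 0.30 for Ehf and −0.044 for Esr1. Without DOX replicate 2, leaving out another array gave −0.00074 to 0.44 for Foxa1 and −0.051 to 0.20 for Spdef.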
